A study of Mus musculus with 4 samples.

Results

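The Serpina3 genes are a mouse family of serpins, serine protease inhibitors that trap a protease with an exposed loop and are consumed with it. The members described here are the 5 genes Serpina3f, Serpina3g, Serpina3i, Serpina3m and Serpina3n, out of 30905 genes in the deposited matrix. They were chosen by symbol after their levels in these cells were known, so the levels below are a description and carry no test. A single human gene, SERPINA3, stands where the mouse has this cluster. Serpina3g is an intracellular serpin that lacks a secretion signal, inhibits cysteine cathepsins and is known from activated T cells and macrophages. Serpina3n is a secreted acute phase protein that inhibits granzyme B and is used as a marker of reactive astrocytes and injured tissue.

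The cells came from 4 mouse hearts collected 5 days after transplantation into the abdomen of C57BL/6J recipients, and all mice were males of 8 to 10 weeks. In 2 allogeneic grafts the donor strain was Balb/C, and in 2 syngeneic grafts it was C57BL/6J, the recipient's own strain. Each digested graft went through 10x Chromium 3′ sequencing, so a graft sample holds donor cells and recipient cells that entered it. The deposited matrix merges all cells, and the suffix of each barcode, 1 to 4, gives 4 sets called libraries 1 to 4. No source used here ties a suffix to a graft, so allogeneic and syngeneic grafts were not compared, the 4 libraries cannot serve as replicates, and every value below is unreplicated.

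After filters, 42395 of 53824 cells were kept, with 9358 to 12496 cells and 75773516 to 142965143 UMIs (unique molecular identifiers, counted as transcripts) per library, mitochondrial genes left out. Median depth per cell was 5333.5, 4577.5, 8580.5 and 11902 UMIs from library 1 to library 4, and 308 barcode sequences occurred in 2 libraries. Levels are CPM, UMIs of a gene per 1000000 non-mitochondrial UMIs of the same cells, and ranges in parentheses beside levels are exact Poisson 95% intervals. Ranges beside ratios of members are exact Clopper-Pearson 95% intervals of a share, turned into a ratio. Both kinds cover counting error only. Cells were clustered with the Serpina3 genes left out, and a cluster was named from marker genes, as in endothelial-like. The classes were split by library to an extent that matters here. The 636 endothelial-like cells of library 4 formed a cluster of their own, led by Ubd, Gbp2b and Cxcl9, while 3684 of 3873 endothelial-like cells of library 1 and 3180 of 3503 of library 3 shared a cluster and the 4712 of library 2 lay mainly in 2 others. Fibroblast-like cells divided in the same way, with 550 of 555 library 4 cells in a cluster led by Timp1 and Cxcl14 and 784 of 803 library 2 cells in a cluster led by Prg4 and Cxcl5. A cluster made of 1 library may reflect that library and not a cell type.

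All Serpina3 genes lie side by side on mouse chromosome 12 (GRCm38, GENCODE M21), where 10 protein-coding genes and 4 pseudogenes span 301606 bases. Serpina3f occupies chr12:104214544-104221129, Serpina3g chr12:104236245-104241939, Serpina3i chr12:104263122-104269372 and Serpina3n chr12:104406729-104414329, all on the plus strand. Serpina3m, at chr12:104338486-104394257 on the same strand, is annotated over the whole of Serpina3k, so reads in Serpina3k exons cannot be assigned with certainty. Of the other protein-coding rows, Serpina3c held 382 UMIs, Serpina3a 4, and Serpina3b, Serpina3j and Serpina3k 1 each, against 801 to 77448 for the 5 members. The genes are close copies. Between transcripts, Serpina3f and Serpina3g were identical at 89.8% of aligned bases, Serpina3f and Serpina3i at 89.4%, and Serpina3g and Serpina3i at 88.6%, whereas Serpina3n shared 82.0% to 83.9% with those 3. Stretches of 90 bases found also in another gene made up 4.49% of Serpina3f, 6.36% of Serpina3g, 3.60% of Serpina3i, 7.32% of Serpina3m and 0.709% of Serpina3n. None of the 211 such stretches in the last 300 bases of any member, the end that 3′ counting reads, occurred in another gene. That sequence is from the C57BL/6J reference, and how Balb/C transcripts mapped to it was not tested.

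**Figure D1:**
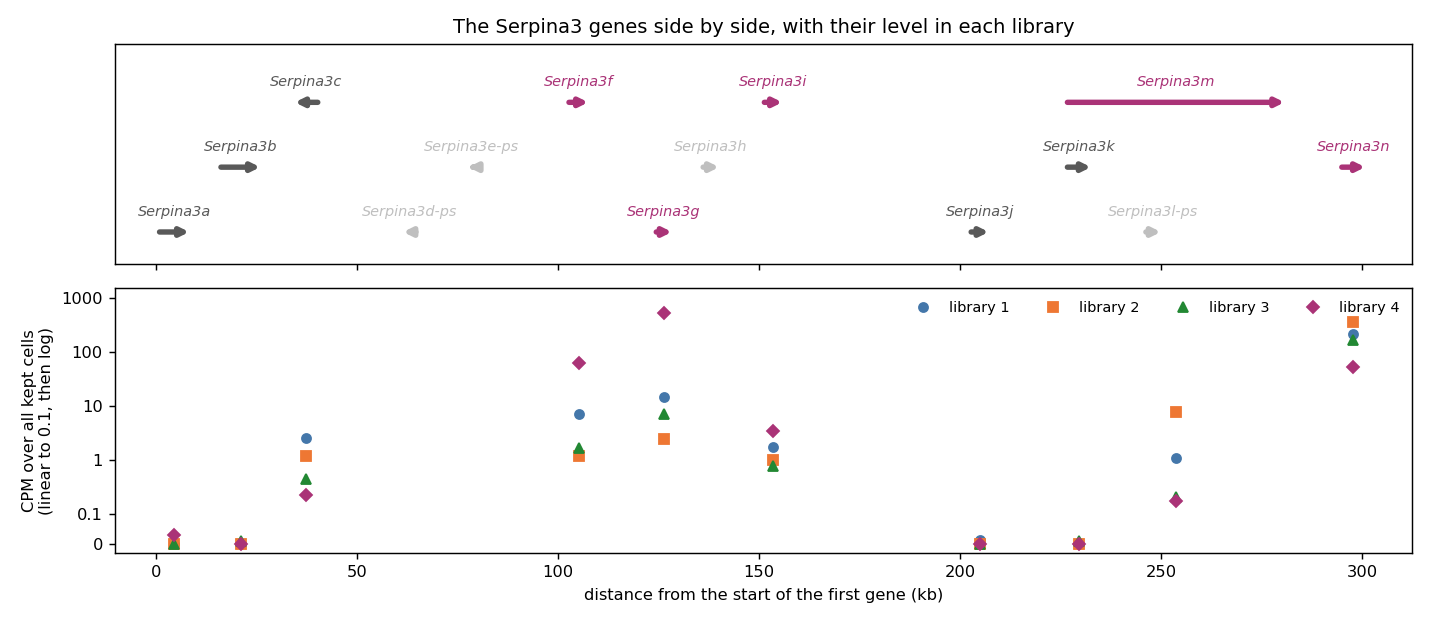
The Serpina3 genes drawn to scale by distance in kb (top, members in purple, other coding genes in dark grey, pseudogenes in light grey, arrowheads showing strand) and the level of each gene that has a row in the matrix, in CPM over all kept cells of each library (bottom, linear to 0.1 and then logarithmic). Serpina3f, Serpina3g and Serpina3i were highest in library 4, while Serpina3m and Serpina3n, farther along the chromosome, were highest in library 2.

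Promoter sequence is shown because the members differ at a site in it. GAS elements (gamma-activated sites), with the letters TTCNNNGAA, are known from promoters of genes that respond to interferon gamma. RefSeq entries (GRCm38.p6, 250 bases before to 50 after the transcript start) existed for 4 of the 5 members. The 49-base windows below hold the 9 bases of the GAS-type match, or of the aligned stretch in Serpina3n, in capitals:
Serpina3f: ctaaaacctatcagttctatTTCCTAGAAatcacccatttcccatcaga
Serpina3g: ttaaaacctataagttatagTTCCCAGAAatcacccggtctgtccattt
Serpina3i: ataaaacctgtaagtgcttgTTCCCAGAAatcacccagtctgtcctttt
Serpina3n: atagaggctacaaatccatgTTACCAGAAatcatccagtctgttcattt
The windows lie upstream of each gene's RefSeq start, on the plus strand, at chr12:104214403-104214451 for Serpina3f, chr12:104236094-104236142 for Serpina3g, chr12:104263000-104263048 for Serpina3i and chr12:104406565-104406613 for Serpina3n. Serpina3g and Serpina3i had the same 9 letters, Serpina3f differed from Serpina3g by C5T inside the free letters, and Serpina3n by C3A, counted from 1 at the 5′ end of the 9 bases. The match began 121 bases before the RefSeq start in Serpina3f, 33 in Serpina3g and 102 in Serpina3i, and the Serpina3n promoter held no match. RefSeq and GENCODE starts coincide for Serpina3f and Serpina3i. The Serpina3g entry ends at chr12:104236196, before its GENCODE start at chr12:104236245, so from that start its match lies farther upstream. The distance of 33 bases therefore depends on the start used. Among 32851 promoters of the same length 8.30% held TTCNNNGAA, which reads the same on both strands. The interferon-stimulated response element (GAAA, 2 free bases, GAAA), searched on both strands, was in none of the 4 and in 3.44% of all promoters. A match is a description of letters, and no binding was measured here.

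Serpina3g was a gene of library 4. Over all kept cells it had 1119, 237, 761 and 74774 UMIs in libraries 1 to 4, so that 97.2% came from library 4, where its level was 523 CPM against 2.42 to 14.8 in the others. Serpina3f, its nearest copy in sequence, had 537, 113, 179 and 9015 UMIs, 91.6% of them from library 4. Serpina3i had 131, 97, 84 and 489 UMIs, 61.0% of them from library 4. These 3 genes are neighbours, with the pseudogene Serpina3h between Serpina3g and Serpina3i. All hold the GAS-type match, and whether it bears on their levels was not tested.

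In endothelial-like cells Serpina3g stood at 9.86, 3.93, 1.90 and 1512 CPM (1486 to 1539 in library 4) in libraries 1 to 4. Library 4 was 76.6-fold the next library, with 10 CPM added to both, and no interval of another library came near it. Serpina3f was also highest in library 4, at 3.78, 0.477, 1.33 and 137 CPM, 10.6-fold the next library. Serpina3i, hardly seen elsewhere, was at 0.0805, 0.421, 0.162 and 25.2 CPM, 3.38-fold. At least 2-fold over each other library was the rule by which 2.71% of 9092 genes tested were called in endothelial-like cells of library 4, and 3 of the 4 members tested were among them. Serpina3n, at 13.04, 48.3, 9.59 and 48.7 CPM, was not called. In single library 4 endothelial-like cells the median was 12 Serpina3g UMIs and the highest 236, and 5.82% of cells had none. The level was therefore spread over nearly the whole cluster, and the top 10% of cells held 38.9% of the UMIs. All 8 endothelial markers were detected in these cells and summed to 4634 CPM, against 6981 to 8676 CPM in the other libraries. The name is less firm than in those, since coarser clustering or a minimum of 500 genes left 0 and 5 library 4 cells with it. The minimum of 500 genes also cut library 1 from 3873 to 732 endothelial-like cells, while libraries 2 and 3 had 5654 and 3272. In libraries 1 to 3 98.5% to 98.6% of endothelial-like cells had no Serpina3g UMI.

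In macrophage-like cells, Serpina3g was at 16.4, 0.536, 5.36 and 533 CPM (529 to 538 in library 4) and Serpina3f at 1.91, 0.0670, 0.638 and 69.0 CPM. Both were highest in library 4, by 20.6-fold and 6.63-fold over the next library, in a class where 2.98% of 8244 genes were called for library 4. Serpina3g was nearly universal there, with 9.74% of 5738 cells lacking a UMI and a median of 6. The other 3 members were low in every library of this class, Serpina3i and Serpina3m at most 0.361 and 0.0670 CPM and Serpina3n at most 8.51 CPM. In fibroblast-like cells Serpina3g was at 15.8, 0.677, 9.44 and 586 CPM and Serpina3f at 14.3, 3.72, 2.60 and 74.6 CPM. Library 4 was 23.1-fold and 3.47-fold the next, where 3.44% of 9582 genes were called for library 4. Serpina3i reached 13.8 CPM there against 1.75 to 4.35 in the other libraries, 1.66-fold with 10 CPM added and so not called.

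In granulocyte-like and B-like cells library 4 was again highest. In granulocyte-like cells Serpina3g was at 2.36, 0.435, 0 and 127 CPM and Serpina3f at 2.36, 0.174, 0 and 30.5 CPM. The 130 B-like cells of library 4 had 830 CPM of Serpina3g (757 to 907) and 187 CPM of Serpina3f (154 to 226), and the 106 of library 3 had 42.5 CPM and 2.36 CPM. B-like cells are few, but 87.7% of those in library 4 had a Serpina3g UMI. Pericyte-like cells of library 4 numbered 44, under the 50 required for the comparison, and 38 of them held 843 Serpina3g UMIs, or 1112 CPM, against 1.59 to 4.07 CPM in libraries 1 to 3.

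The exception was the T/NK-like class. Serpina3g was at 172, 9.43, 199 and 108 CPM in libraries 1 to 4 there, so that libraries 1 and 3, at 172 (151 to 195) and 199 (169 to 232) CPM, lay above library 4 (103 to 112). Intervals of libraries 1 and 3 overlapped, and library 2 was low. Thinning, which gives each cell the same weight, changed part of this order. In cells thinned to 1000 UMIs the level was 156, 6.25, 277 and 165 CPM, so that library 1 no longer lay above library 4, and a Serpina3g UMI was in 11.6%, 0.625%, 19.3% and 13.4% of cells. Without thinning, 37.9%, 1.22%, 36.4% and 55.6% of cells held one, most in library 4. Serpina3f was at 13.4, 0, 8.69 and 9.50 CPM, where the intervals of libraries 1, 3 and 4 overlapped and library 2, with no UMI, had an upper limit of 4.97 CPM. Among subclusters of this class Serpina3g was highest in the NK subcluster from libraries 1 and 3 led by Spp1 and Ncr1 (290 CPM, 105 cells), the gamma-delta T subcluster (274 CPM, 53 cells) and the NK subcluster of library 4 led by Klra4 and Gzma (270 CPM, 227 cells), whose intervals overlapped. It was lowest among the library 4 subclusters in the one led by Ifng and Ccl3, at 46.0 CPM in 196 cells, and in the larger cycling subcluster, at 61.5 CPM. The subcluster of 525 cells named Treg, with Cd4 and Foxp3 among its leading genes, had 137 CPM. A leading gene needs a UMI in only 10% of cells, and the share of other CD4 T cells there was not tested. The mix of subclusters differed by library. The NK subcluster led by Spp1 held 64 of 174 library 1 and 35 of 121 library 3 cells. A subcluster named naive T but led by Fabp4, S100a8 and Cd36, genes of other cells, held 158 of 164 library 2 cells. The larger cycling subcluster held 371 of 1404 library 4 cells. The part of this mix and of other cells' transcripts in the order of the libraries was not tested.

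**Figure D2:**
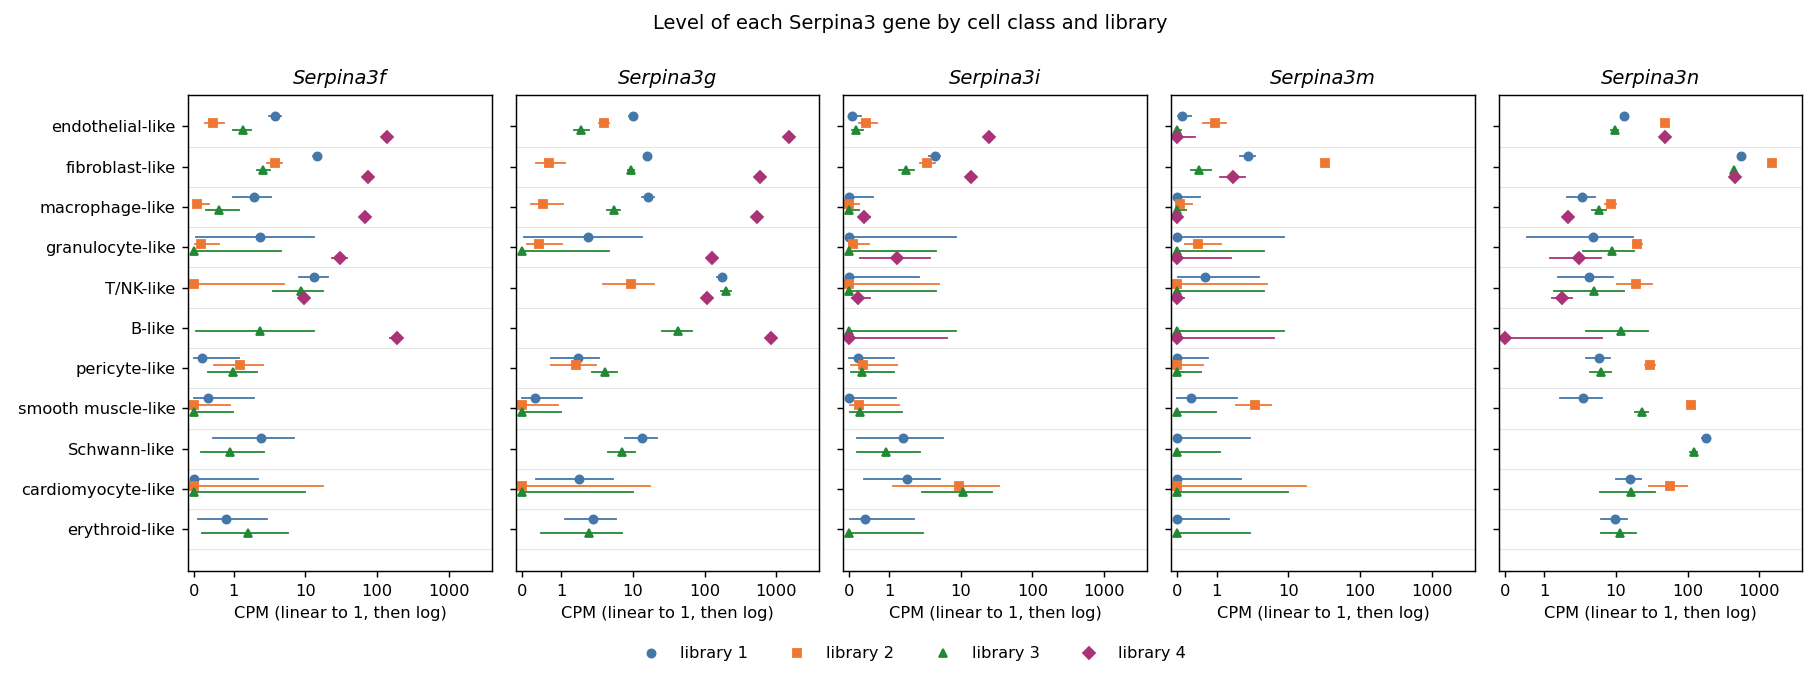
Level of each of the 5 genes in CPM (horizontal, linear to 1 and then logarithmic) in each cell class of each library with at least 50 cells, with bars for exact Poisson 95% intervals. For Serpina3f and Serpina3g the library 4 points stand far to the right in every class that library 4 has except T/NK-like cells, while Serpina3n lies to the right in fibroblast-like cells of all 4 libraries.

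The counts of the members did not keep 1 ratio across cell types of library 4. Per 100 Serpina3g UMIs there were 9.03 (8.49 to 9.60) Serpina3f UMIs in endothelial-like cells, 12.9 (12.6 to 13.3) in macrophage-like cells and 22.6 (18.2 to 27.8) in B-like cells. The same measure was 8.84 (7.65 to 10.2) in T/NK-like cells and 12.7 (11.9 to 13.6) in fibroblast-like cells. Serpina3i moved further, with 1.67 (1.45 to 1.91) UMIs per 100 Serpina3g UMIs in endothelial-like cells, 2.36 (2.04 to 2.71) in fibroblast-like cells and 0.0677 (0.0463 to 0.0956) in macrophage-like cells. Of the 489 Serpina3i UMIs of library 4, 208 were in endothelial-like and 203 in fibroblast-like cells, and 32 in macrophage-like cells. Outside library 4 the ratios differed again. Fibroblast-like cells of library 1 held 90.9 Serpina3f UMIs and 27.6 Serpina3i UMIs per 100 of Serpina3g, from 442 Serpina3g UMIs.

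Markers of other cells moved with library 4 as well. In endothelial-like cells of library 4 the 8 T/NK markers summed to 75.5 CPM and the 8 macrophage markers to 422 CPM, against 2.00 to 6.00 and 68.1 to 126 CPM in the other libraries. All 8 of both lists were detected. Macrophage markers summed to 11597 CPM in macrophage-like cells of library 4, and the Serpina3g level of those macrophage-like cells, 533 CPM, was below that of the endothelial-like cells. Gzmb, a granzyme of killer lymphocytes, was at 50.9 CPM in endothelial-like cells of library 4 and at 4725 CPM in its T/NK-like cells. The part of these transcripts in the Serpina3 levels was not tested.

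Within the classes, the Serpina3g level varied between subclusters made with the Serpina3 and interferon gamma genes left out. In macrophage-like cells it was at 4.89 CPM in the 1377 cells led by Fcrls, Ms4a7 and Apoe, which came mainly from libraries 1 and 3. Library 2 cells, the lowest of this class by library, lay mainly in subclusters led by Cxcl3 and Lcn2 (743 cells) and by Cd163 and Mt2 (262 cells). The level was highest, at 1186 CPM (1161 to 1211), in 697 library 4 cells led by Treml4 and Itgal. Treml4 is a receptor of nonclassical monocytes and splenic macrophages, and 5 markers of nonclassical monocytes passed in the subcluster. The library 4 subclusters led by Nos2 and by Ly6c2 stood in between, at 551 and 573 CPM. Serpina3f was likewise highest in the subcluster led by Treml4, at 170 CPM, against 78.3 and 74.6 CPM in those led by Nos2 and Ly6c2. Among fibroblast-like cells the 297 cells led by Hp, C1rb and Saa3, 295 of them from library 4, had 615 CPM of Serpina3g, 68.5 of Serpina3f and 14.5 of Serpina3i. A further 178 cells, 177 from library 4, were led by S100a8, Gzma and Trbc2, genes of other cells, and had a median of 1326 UMIs. They had 630 CPM of Serpina3g. Another 53 cells, 52 of them from library 4, were led by Fcer1g, Ctss and Lyz2, also genes of other cells. The part of other cells' transcripts in the levels of fibroblast-like cells was not tested.

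The genes most like Serpina3g and Serpina3f were sought by the correlation of log2(CPM + 10) over 35 groups of class and library, among 4987 genes that reached 100 CPM in a group. The groups share libraries and differ in depth, so the correlations are descriptions. The 5 highest for Serpina3g were Zbp1 (r = 0.90), Phf11b (0.88), Gbp8 (0.87), Psme1 (0.86) and Tap1 (0.86). Tap1 and Psme1 serve antigen processing for MHC class I, Zbp1 senses nucleic acid and Gbp8 is a guanylate-binding protein. For Serpina3f they were Gbp2b (0.87), Zbp1 (0.87), Cfb (0.84), Batf2 (0.83) and Ubd (0.82). Cfb encodes complement factor B and Ubd encodes FAT10, a ubiquitin-like protein. Serpina3g and Serpina3f had r = 0.93 with each other. Serpina3i correlated with them at 0.38 and 0.45, and Serpina3n at -0.09 and 0.02.

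The interferon gamma list followed the libraries. Of its 25 genes, 20 of 25 tested were at least 2-fold over each other library in endothelial-like cells of library 4, and 24 of 25 were in both fibroblast-like and macrophage-like cells of library 4, beside the backgrounds of 2.71%, 3.44% and 2.98% of all genes. A gene can be called only in the library where it is highest, so these genes could not be called in another. The listed genes not called in library 4 were called in no library of these 3 classes. Ubd, at 2.17, 0.140, 0.271 and 1663 CPM in endothelial-like cells, and Cxcl9, at 503, 21.8, 187 and 9951 CPM, were examples. In T/NK-like cells Cxcl9 and Gbp2 were the 2 of 21 tested that were called in library 4. The share of all genes called in T/NK-like cells was not counted.

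Inside library 4 cells were split by the share of their UMIs in the interferon gamma list, after thinning every cell to 1000 UMIs. In endothelial-like cells Serpina3g stood at 842 CPM (705 to 998) in the lowest 25% of cells and 1728 CPM (1529 to 1945) in the highest 25%, 2.04-fold, with a UMI in 44.9% and 74.1% of 158 cells each. Of 8761 genes tested, 768 (8.77%) were at least 2-fold higher there and 1129 at least 2-fold lower. Each 25% held 158 endothelial-like, 1432 macrophage-like, 347 T/NK-like or 124 fibroblast-like cells. With few cells a few UMIs make a 2-fold difference, so such shares depend on cell number and are not comparable between classes. In macrophage-like cells Serpina3g went from 390 CPM (359 to 424) to 733 CPM (690 to 779), 1.86-fold and under the 2-fold mark, which 0.399% of 7263 genes passed. Serpina3f followed at 108 and 190 CPM in endothelial-like cells, with overlapping intervals, and 55.2 and 94.3 CPM in macrophage-like cells. Serpina3g in T/NK-like cells went from 112 CPM (79.9 to 154) to 210 CPM (165 to 265), 1.80-fold. Serpina3f went there from 0 CPM (upper limit 10.6) to 46.1 CPM (26.4 to 74.9), 5.61-fold, from 0 and 16 UMIs. Of 8393 genes tested in T/NK-like cells, 9.67% were at least 2-fold higher. For granulocyte-like cells the intervals of both genes overlapped. In fibroblast-like cells Serpina3g was at 621 CPM (490 to 776) in the lowest 25% and 548 CPM (426 to 695) in the highest, with overlapping intervals, where 13.3% of 8380 genes were at least 2-fold higher. Serpina3f was at 16.1 CPM in the lowest and 88.7 CPM in the highest 25% of these cells, 3.78-fold with 10 CPM added, from 2 and 11 UMIs with overlapping intervals. The fibroblast-like cells of library 4 include the subclusters led by genes of other cells, whose part in these levels was not tested. The same split in endothelial-like cells of library 1 gave Serpina3g at 0 CPM (upper limit 3.88) and 12.6 CPM (6.53 to 22.1). That was 2.26-fold, from 0 and 12 UMIs, where 2.04% of 8853 genes passed. In fibroblast-like cells of library 1 Serpina3g was 2.09-fold, from 3 and 12 UMIs, where 1.61% of 9057 genes passed. Its intervals overlapped there and in all other groups split in libraries 1 to 3. Cells of 1 library share their graft, so these sets of cells are no replicates of a response.

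**Figure D3:**
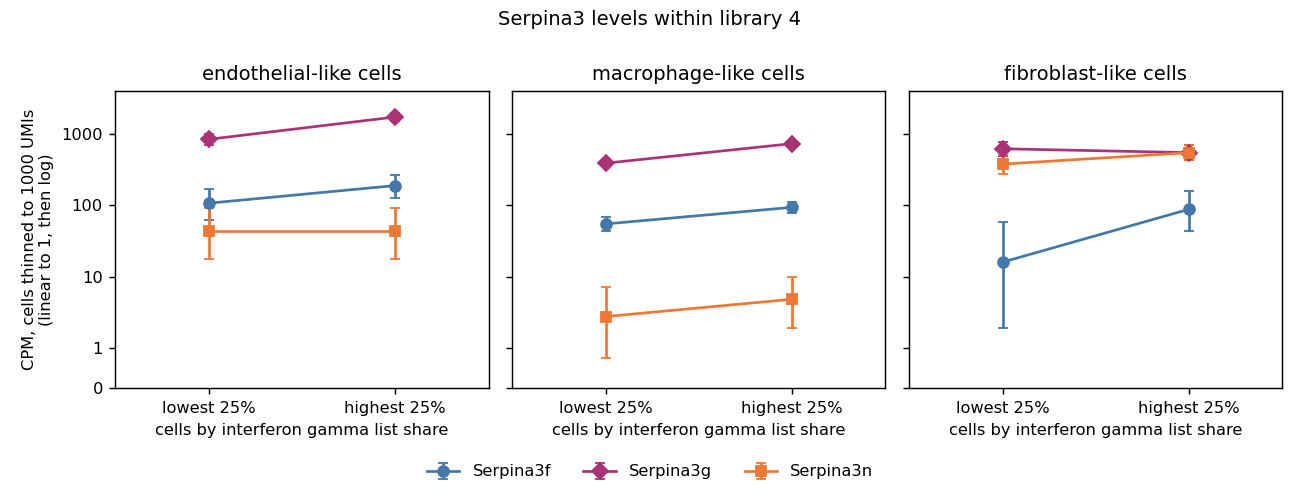
CPM (vertical, linear to 1 and then logarithmic) of Serpina3f, Serpina3g and Serpina3n in library 4 cells thinned to 1000 UMIs, in the 25% of cells with the lowest and the 25% with the highest share of UMIs in the interferon gamma list. Bars are exact Poisson 95% intervals. Serpina3g lay higher in the highest 25% of endothelial-like and macrophage-like cells, and its intervals overlapped in fibroblast-like cells.

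Serpina3n had another distribution, with 16213, 35556, 18284 and 7395 UMIs in libraries 1 to 4. It was the gene of fibroblast-like cells, at 694 CPM over all libraries, with Schwann-like cells next at 187 and smooth muscle-like cells at 53.2. The highest class was 3.58-fold the second, with 10 CPM added, a difference of at least 2-fold that 17.1% of 11833 genes showed. Of the other members tested, Serpina3f had its highest levels in B-like (81.2 CPM) and macrophage-like cells (48.9 CPM) and Serpina3g in macrophage-like (378 CPM) and B-like cells (377 CPM), and neither passed 2-fold. Leaving out library 4 moved the highest class of both to T/NK-like cells, at 8.76 and 138 CPM, and Serpina3g then passed 2-fold as well. Serpina3i and Serpina3m stayed under 10 CPM in every class and were not tested.

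Fibroblast-like cells of libraries 1 to 4 had 554 (546 to 563), 1525 (1508 to 1542), 444 (438 to 451) and 452 (441 to 463) CPM of Serpina3n. Library 2 was highest, 2.72-fold the next, where 2.83% of 9582 genes were called for library 2, and the intervals of libraries 3 and 4 overlapped. Serpina3n was present in most cells of the class. A UMI was missing in 21.8%, 7.10%, 23.9% and 33.9% of cells of libraries 1 to 4, and the median library 2 cell had 24 UMIs and the highest 513. Fibroblast markers, 8 genes, summed to 48067, 10780, 52592 and 30854 CPM, so the library with the highest Serpina3n level had the lowest marker sum. Granulocyte markers, 7 genes, summed to 22.2, 681, 14.8 and 68.8 CPM. Their part in the Serpina3n level was not tested.

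Among fibroblast-like subclusters Serpina3n was highest in the 764 library 2 cells led by Cxcl3, Cxcl5 and Prg4, at 1505 CPM. It was at 808 CPM in 357 cells led by Gucy1a1 and Cpz and at 743 CPM in 315 cells led by Il6 and Cpz, both from libraries 1 and 3. The resting fibroblast-like subclusters had 492 and 632 CPM, and the activated fibroblast-like ones, led by genes such as Cilp and Ddah1, had 401 and 457 CPM. A level of at least 260 CPM therefore held in all subclusters of 49 cells or more, activated or not. The 37 cells led by Msln and Upk3b, genes of mesothelium, had 24.5 CPM.

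Among libraries 1 to 3, mural cells had their highest Serpina3n levels in library 2. Smooth muscle-like cells of these libraries had 3.43, 112 and 22.8 CPM, and pericyte-like cells 5.73, 30.1 and 6.19 CPM. Library 4 had too few mural cells for the comparison. Its 44 pericyte-like cells had 60.7 CPM (44.4 to 80.9), from 46 UMIs, above library 2. Its 12 smooth muscle-like cells had 136 CPM (90.8 to 195), from 29 UMIs, with an interval that spans the library 2 level. Fibroblast markers in smooth muscle-like cells summed to 916, 919 and 3178 CPM in libraries 1 to 3. Their part in the Serpina3n level was not tested. In endothelial-like cells, subclusters of library 2 led by Cxcl3 and Retnlg (648 cells) and by Cxcl5 and S100a8 (352 cells), granulocyte genes among them, had 272 and 295 CPM and held 884 and 133 of the 1721 Serpina3n UMIs, while the capillary-like subclusters of library 2 had 16.8 and 34.1 CPM. The whole class stood at 48.3 CPM in library 2 and 48.7 CPM in library 4. Granulocyte markers summed to 3566 CPM in endothelial-like cells of library 2, against 46.0 to 283 CPM in the other libraries, and Serpina3n was at 19.9 CPM in granulocyte-like cells of library 2. Lymphatic-like endothelial cells, which line lymph vessels and carried Prox1, Lyve1 and Ccl21a, had 176 CPM (149 to 205) in library 1 and 148 CPM (126 to 173) in library 3, against 13.04 and 9.59 CPM for all endothelial-like cells of those libraries.

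Schwann-like cells, the glia of cardiac nerves, had 181 CPM of Serpina3n in library 1 and 121 CPM in library 3. The level was uneven, since the top 10% of cells held 92.1% and 70.8% of its UMIs. Fibroblast markers summed to 13966 and 18222 CPM in them, with all 8 detected, and to 48067 and 52592 CPM in fibroblast-like cells of the same libraries, where Serpina3n was at 554 and 444 CPM. The part of fibroblast transcripts in the Schwann-like level was not tested. In library 3 a Serpina3n UMI was in 28.2% of Schwann-like cells, whose median depth was 2323.5 UMIs. Macrophage-like cells of library 3 had it in 6.81% of cells at a median of 12887 UMIs. The part of other cells' transcripts in either share was not tested. A further 28 Schwann-like cells came from library 2, and 27 of them held 267 Serpina3n UMIs, or 1215 CPM.

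Serpina3m, the neighbour of Serpina3n, was a rare transcript of library 2, with 81, 738, 22 and 25 UMIs in libraries 1 to 4. Fibroblast-like cells had 2.71, 32.0, 0.566 and 1.702 CPM, library 2 being 3.30-fold the next with 10 CPM added. Smooth muscle-like cells of library 2 had 3.44 CPM from 14 UMIs. The 28 Schwann-like cells of library 2 had 54.6 CPM (28.2 to 95.4), from 12 UMIs in 6 cells. The gene was concentrated, for 78.5% of fibroblast-like cells of library 2 had none, the highest had 46, and the top 10% of cells held 82.3% of the UMIs. After thinning, 18 of the 22 cells with a Serpina3m UMI also had one of Serpina3n, which 59.1% of the 794 cells had. Per 100 Serpina3n UMIs there were 0.489 (0.385 to 0.613), 2.10 (1.94 to 2.26), 0.127 (0.0798 to 0.193) and 0.376 (0.243 to 0.556) Serpina3m UMIs in fibroblast-like cells of libraries 1 to 4. The ratio of neighbours thus differed between library 2 and each other library by more than its counting interval. With Serpina3n, Serpina3m had r = 0.64 over the 35 groups.

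**Figure D4:**
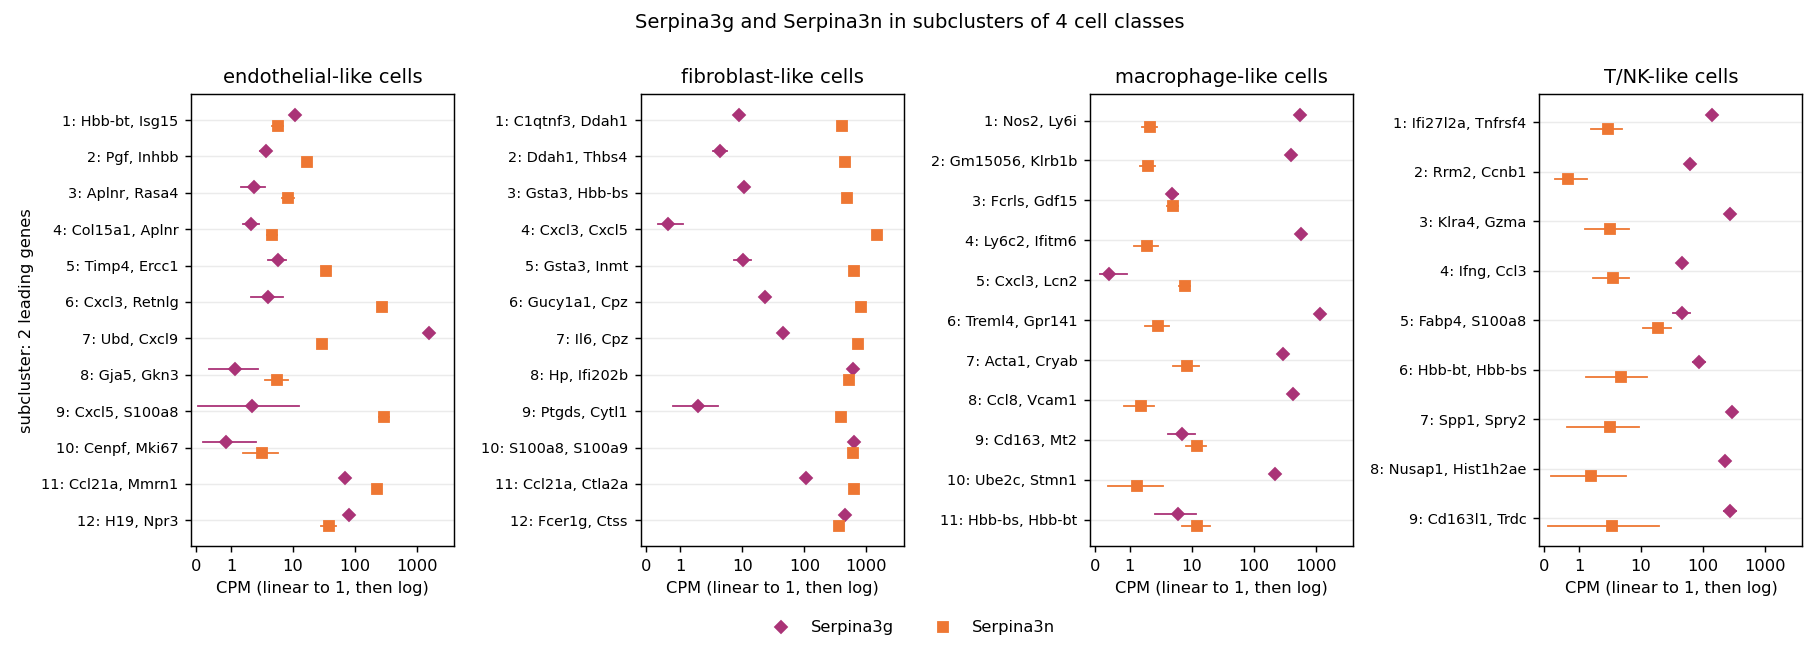
Serpina3g and Serpina3n in CPM (horizontal, linear to 1 and then logarithmic) in subclusters of at least 50 cells of 4 classes, each labelled by its number and 2 leading genes other than Serpina3, with exact Poisson 95% intervals. Serpina3g peaks in endothelial-like subcluster 7 and macrophage-like subcluster 6, both of library 4, while Serpina3n is high in every fibroblast-like subcluster shown and highest in subcluster 4, of library 2.

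The genes most like Serpina3n over the 35 groups were Gfpt2 (r = 0.92), Medag (0.92), Aebp1 (0.91), Ptx3 (0.91) and Fgf2 (0.90). Ptx3 encodes a secreted pentraxin of innate immunity and Fgf2 a fibroblast growth factor. In the acute phase and interleukin 6 list, only Lif of 17 genes tested was called in fibroblast-like cells of library 2, at 5.03, 186, 17.9 and 73.6 CPM in libraries 1 to 4, and 2.83% of all genes were. Steap4, Socs3 and Cebpd were called in library 1, and Hp, Saa3 and Il1b in library 4, in neither of which Serpina3n was highest. Lcn2, a secreted iron-trapping protein often measured beside Serpina3n, was at 49.4, 751, 6.76 and 457 CPM, 1.63-fold over the next and not called. Sgk1 was the 1 gene of 8 in the glucocorticoid list called in library 2. Within fibroblast-like cells of libraries 1, 3 and 4, Serpina3n in the highest 25% by the interferon gamma list was 0.84-fold, 1.16-fold and 1.44-fold the lowest, with overlapping intervals in each. In library 2 the highest 25% also held cells with no UMI of the list, so the split says nothing there.

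Fibroblast-like cells of library 4 carried both genes at once, Serpina3g at 586 and Serpina3n at 452 CPM. Among 499 such cells thinned to 1000 UMIs, 40.9% had a Serpina3g UMI, 31.9% a Serpina3n UMI and 12.8% both, where the product of the shares is 13.03%. The 2 genes thus overlapped at about the share of independent detection. Before thinning, the 555 fibroblast-like cells of library 4 included 177 led by S100a8, Gzma and Trbc2. A further 52 were led by Fcer1g, Ctss and Lyz2, also genes of other cells. The part of such cells in these shares was not tested. For Serpina3f and Serpina3g the share with both was 8.66% against a product of 7.85% in endothelial-like cells, and 3.58% against 2.53% in macrophage-like cells. In the latter, 52.6% of cells with a Serpina3f UMI also had Serpina3g, which 37.1% of all of them had.

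**Figure D5:**
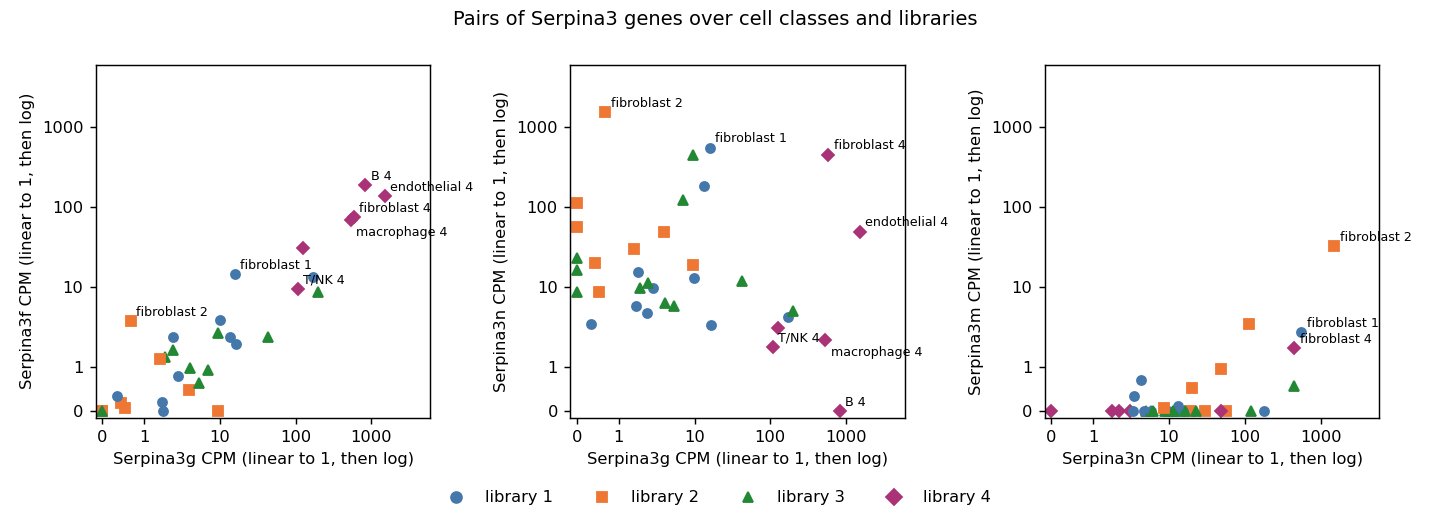
Pairs of Serpina3 genes in CPM on both axes (linear to 1 and then logarithmic), 1 point for each of 35 groups of cell class and library, with a few groups labelled by class and library number. Serpina3f climbs with Serpina3g, Serpina3n and Serpina3g occupy different groups except fibroblast-like cells of library 4, and Serpina3m is above 10 CPM only in fibroblast-like cells of library 2.

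Listed serine proteases and cysteine cathepsins were measured in the same cells, and whether each is a target of these serpins was not tested. Gzmb and Gzma, granzymes released by killer lymphocytes, were highest in T/NK-like cells, at 4253 and 2638 CPM. Gzma is among the markers that named T/NK-like cells, so its highest class was largely set by the naming. By library, Gzmb in T/NK-like cells was at 1152, 1.35, 490 and 4725 CPM, 4.07-fold the next in library 4, and Gzma at 3465, 17.5, 1182 and 2725 CPM, not called. Over all libraries, 5 of the 7 cysteine cathepsins listed were highest in macrophage-like cells, with Ctss at 3225, Ctsc at 2435 and Ctsb at 2355 CPM among them. Ctsc is among the markers that named macrophage-like cells, so its highest class was likewise largely set by the naming. Ctsl and Ctsk were highest in fibroblast-like cells, at 1009 and 168 CPM. The share of all genes highest in macrophage-like cells was not counted. Serpina3g over all libraries was at 378 CPM in macrophage-like and 377 CPM in B-like cells. In library 4 it was at 533 CPM in macrophage-like cells, below the 1512 CPM of endothelial-like cells. In macrophage-like cells Ctss was at 2463, 1026, 2488 and 3780 CPM and Ctsb at 3480, 1606, 4310 and 2056 CPM. Ctss, like Serpina3g, was highest in library 4 and lowest in library 2, whereas Ctsb was highest in library 3. Other serpins moved in part with library 4. In endothelial-like cells of library 4, 5 of 10 other serpins tested were called, Serping1, Serpina1b, Serpinb9, Serpinb1a and Serpinb6b, beside the 2.71% of all genes. Fewer were called in library 4 elsewhere, 2 of 11 in fibroblast-like and 1 of 9 in macrophage-like cells, beside 3.44% and 2.98% of all genes. In granulocyte-like and T/NK-like cells 2 of 12 and 0 of 11 were called, where the share of all genes was not counted. Over all libraries Serpinb6b and Serpinb9 were highest in T/NK-like cells, at 446 and 320 CPM. The part of T/NK transcripts in the endothelial-like calls was not tested. Serpinb9 is an intracellular inhibitor of granzyme B and Serping1 is the complement C1 inhibitor.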

How the data were processed

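The authors deposited 1 matrix of raw UMI counts, by gene and cell, from Cell Ranger 3.0.0 (mm10, Ensembl 92). Cells with over 200 genes and under 20% mitochondrial UMIs were kept, mitochondrial genes removed, and the 5% of cells per library most like simulated doublets left out. In place of Seurat, 2000 variable genes without the Serpina3 rows gave 10 principal components, 30 neighbours and Leiden clusters at resolution 0.8 with seed 20, and 0.5 for subclusters. A cluster took the class with the highest share of passing markers, with at least 3 required. The rule that an erythroid-like cluster needs 3 markers among its 10 leading genes was added after seeing the data, and left 1965 cells unnamed.

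Levels are pooled CPM. Intervals of levels are exact Poisson and those of ratios are from Clopper-Pearson, and product shares are of cells thinned to 1000 UMIs. Genes under 10 CPM in every group compared were not tested for a 2-fold difference, with 10 CPM added. Members, lists and marker genes were chosen with earlier results of these data known. Named beside the members were the other Serpina3 rows, the listed genes highest in a contrast and the 5 genes most like a member. Other serpins named under the list rule were all those called. Gene examples for lists with no call, proteases by class and leading genes of clusters were chosen after their values were seen. Alternatives to the filters, clustering and denominators were tried. The steps were tested on simulated data. Python 3.11.15, numpy 2.4.6, scipy 1.17.1, igraph 0.11.9, leidenalg 0.10.2 and Biopython 1.88 were used.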

Additional observations from a re-analysis of the deposited data

Results flagged for a closer look

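The 11429 barcodes that the filters left out also held reads of the members, a signal in data that the comparisons did not use. They held 6272 UMIs of Serpina3g, 961 of Serpina3f, 76 of Serpina3i, 114 of Serpina3m and 8292 of Serpina3n, all above the 3 counts that a count of 0 allows. By library Serpina3g was at 8.40, 1.403, 5.44 and 434 CPM in them, and at 14.8, 2.42, 6.95 and 523 CPM in the kept cells. Serpina3n was at 153, 330, 120 and 52.9 CPM, against 214, 363, 167 and 51.7 CPM in kept cells. The order of the libraries was that of the kept cells for both genes. No library belongs to a known group, so single libraries were not compared with a group's spread.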

How the results depend on the processing

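No paired analysis was possible because the cells are not tied to grafts and no result comes from a test. Values that moved beyond their counting interval follow, in CPM, and the cause was not tested unless stated. Leaving out 1 library at a time gave 4.94 to 116 for Serpina3f in B-like, 5.29 to 431 for Serpina3g in macrophage-like, 3.96 to 13.5 for Serpina3i in cardiomyocyte-like, and 1.51 to 12.02 for Serpina3m and 484 to 847 for Serpina3n in fibroblast-like cells, and 1 to 2 members with a highest class at least 2-fold the second. The lowest values were without library 4 for Serpina3f and Serpina3g and without library 2 for Serpina3m, the highest without library 1 for Serpina3i and without library 3 for Serpina3m. With doublets kept, Serpina3g was at 370, Serpina3i at 2.62 and Serpina3n at 675. At least 500 genes per cell gave 685 for Serpina3n, and resolution 1.6 and 20 principal components gave 384 and 367 for Serpina3g. All UMIs as the denominator gave 362 for Serpina3g and 661 for Serpina3n, and the mean of single cells 5.88 for Serpina3m and 629 for Serpina3n. Thinning to 1000 UMIs gave 99.4, 383, 6.47 and 633 for Serpina3f, Serpina3g, Serpina3m and Serpina3n.

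The highest class of Serpina3g became dendritic-like (422) with doublets kept, and B-like with 20 components (369), the Serpina3 genes kept among the variable genes (377), or without library 1 (435) or library 3 (524), and T/NK-like without library 4 (138). That of Serpina3f became T/NK-like without library 4 (8.76). That of Serpina3i became fibroblast-like with doublets kept (4.22), 20 components (4.43), or without library 2 (4.82) or library 3 (6.25), and that of Serpina3m Schwann-like with 20 components (13.7).

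Alternatives for single libraries were chosen after seeing the data. Serpina3g in endothelial-like cells of library 4 was at 1480 with 20 components, 1426 as the mean of cells, 1436 over all UMIs and 1357 thinned. At resolution 0.4 or at least 500 genes fewer than 50 library 4 cells were named endothelial-like, which gave no value. Serpina3g in macrophage-like cells of library 4 was at 527 with doublets, 543 as the mean, 513 over all UMIs and 547 thinned, and Serpina3i in endothelial-like cells of library 4 at 20.5 thinned. Serpina3n in fibroblast-like cells of library 2 was at 1397 with doublets, 1421 at 500 genes, 1438 at resolution 1.6, 1674 as the mean, 1473 over all UMIs and 1661 thinned. Serpina3m there moved in none of these. Depth limits Serpina3i and Serpina3m, with 801 and 866 UMIs in all.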
